A study of Drosophila melanogaster with 12 samples.

Results

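The nuclear tRNA genes of Drosophila melanogaster were examined for binding of ORC2, part of the complex that marks origins of replication (the origin recognition complex, ORC), in the larval fat body. The members were all genes of the Release 6 annotation whose symbol starts with tRNA:, without the mitochondrial genes and the pseudogenes, and a gene was called when its span, extended by 1 kb to each side, met a listed ORC2 region. The rule used position only and no measured value. It gave 290 tRNA genes among 17807 nuclear genes. Many lie in clusters and share a region, so genes within 10 kb of each other were also counted as 1 locus, which gave 133 loci. Of these, 64 held 1 gene, 38 held 2, 14 held 3 and 17 held 4 or more, with 15 genes in the largest. The genes covered 22 isotypes (the amino acid carried, with initiator methionine, iMet, and selenocysteine, SeC, apart) and 44 anticodons. They were short, with a median length of 73 bp and a range of 71 to 186 bp. By arm, 98 lay on 2R, 79 on 3R, 48 on 3L, 41 on 2L and 24 on X.

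tRNA genes are transcribed by RNA polymerase III from promoter boxes that lie inside the gene itself. The factor TFIIIC binds those boxes and brings in TFIIIB, which recruits the polymerase, and the small genes are kept largely free of nucleosomes when they are active. ORC binds chromatin and loads the replicative helicase, and in fly cells its binding has been tied to open chromatin at promoters and enhancers. The larval fat body is a storage and secretory tissue whose cells copy their DNA repeatedly without dividing.

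Chromatin of hand-dissected fat body from male larvae of the wild-type strain OregonR was immunoprecipitated with an antibody to ORC2 and sequenced beside input chromatin. The 3 stages were the 2nd instar (67 to 68 h after egg laying), the mid-3rd instar (91 to 92 h) and the wandering late-3rd instar, with the testes removed. By the study's methods the 2nd-instar samples came from 120 larvae and those of both later stages from 60, so the amount of starting material differed with stage. Each stage had 2 biological ChIP replicates and 2 inputs, 12 libraries in all, and all were of the same genotype. Peaks called for each ChIP replicate against input had been merged into 1 list of regions a stage, and a second list held the peaks that passed a test of reproducibility between replicates at an irreproducible discovery rate (IDR) below 0.1, called high-confidence here.

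Replicate 1 and replicate 2 contributed 4277 and 3830 peaks to the list of the 2nd instar, 930 and 1993 to that of the mid-3rd instar, and 370 and 500 to that of the late-3rd instar. The number of reads behind each list is unknown, so whether a smaller list reflects fewer bound sites or lower depth and enrichment cannot be told apart. The lists hold positions and no expression, so the tissue label could not be checked by marker genes. Copies of a tRNA gene are nearly identical in sequence, and the lists do not show how reads that fit several copies were placed. A call at 1 copy among many is therefore uncertain for the copy, most of all where the region covers the gene itself.

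ORC2 regions lay near most tRNA genes in the 2nd instar, near about 1 in 3 in the mid-3rd instar and near few in the late-3rd instar. In the 2nd instar, 166 of the 290 genes had a region within 1 kb, a share of 57.2%, where the same rule called 30.9% of all nuclear genes. The count was 99 genes in the mid-3rd instar, or 34.1%, against 17.9% of all nuclear genes. It was 26 genes in the late-3rd instar, or 8.97%, against 4.79%. A longer gene offers a larger window, so the ends of protein-coding genes give a base with a window nearer in size. Both ends of every such gene were pooled, expressed or not, so this base does not give the share at active promoters. A region lay within 1 kb of 19.5% of the 27892 outer ends of protein-coding genes in the 2nd instar, 10.1% in the mid-3rd instar and 2.3% in the late-3rd instar. Among 712 other nuclear genes no longer than the longest tRNA gene, the shares were 26.7%, 32.4% and 8.43%, and among the 605 left without histone and rRNA genes 30.4%, 20.7% and 5.29%. The tRNA genes stood above each of these groups at every stage, by little over the 712 short genes in the mid-3rd and late-3rd instar.

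Counted as loci, 65 of 133 were called in the 2nd instar (48.9%, Wilson 95% interval 40.5% to 57.3%), 39 in the mid-3rd instar (29.3%, 22.3% to 37.6%) and 13 in the late-3rd instar (9.77%, 5.80% to 16.0%). These intervals cover counting error over the loci and not the spread between samples. Replicate by replicate, 56 and 58 loci held a peak in the 2nd instar, 21 and 30 in the mid-3rd instar, and 8 and 7 in the late-3rd instar. The counts of the 3 stages did not overlap. As genes, 144 and 151 were called in the 2nd instar, where 27.3% and 23.5% of all nuclear genes were called in the same replicates. The mid-3rd replicates called 56 and 74, beside 8.27% and 16% of all nuclear genes, and the late-3rd replicates 12 and 15, beside 1.87% and 3.62%. The mean numbers of loci were 57 ± 1.41 (SD, n = 2), 25.5 ± 6.36 (SD, n = 2) and 7.5 ± 0.707 (SD, n = 2). The p-value of an exact permutation test, two-sided, was 0.333 for every pair of stages, also after Benjamini-Hochberg adjustment over the 3 pairs, and with 2 replicates against 2 no smaller p can be reached.

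The fall in tRNA loci went along with shorter lists. The number of tRNA loci for every 1000 listed peaks was 13.1 and 15.1 in the replicates of the 2nd instar, 22.6 and 15.1 in those of the mid-3rd instar, and 21.6 and 14 in those of the late-3rd instar. Here the stages overlapped, and the exact permutation p was 0.667 for each pair. Likewise, regions near tRNA genes made up 83 of 4238 regions in the 2nd instar (1.96%), 45 of 2052 in the mid-3rd instar (2.19%) and 16 of 706 in the late-3rd instar (2.27%).

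**Figure D1:**
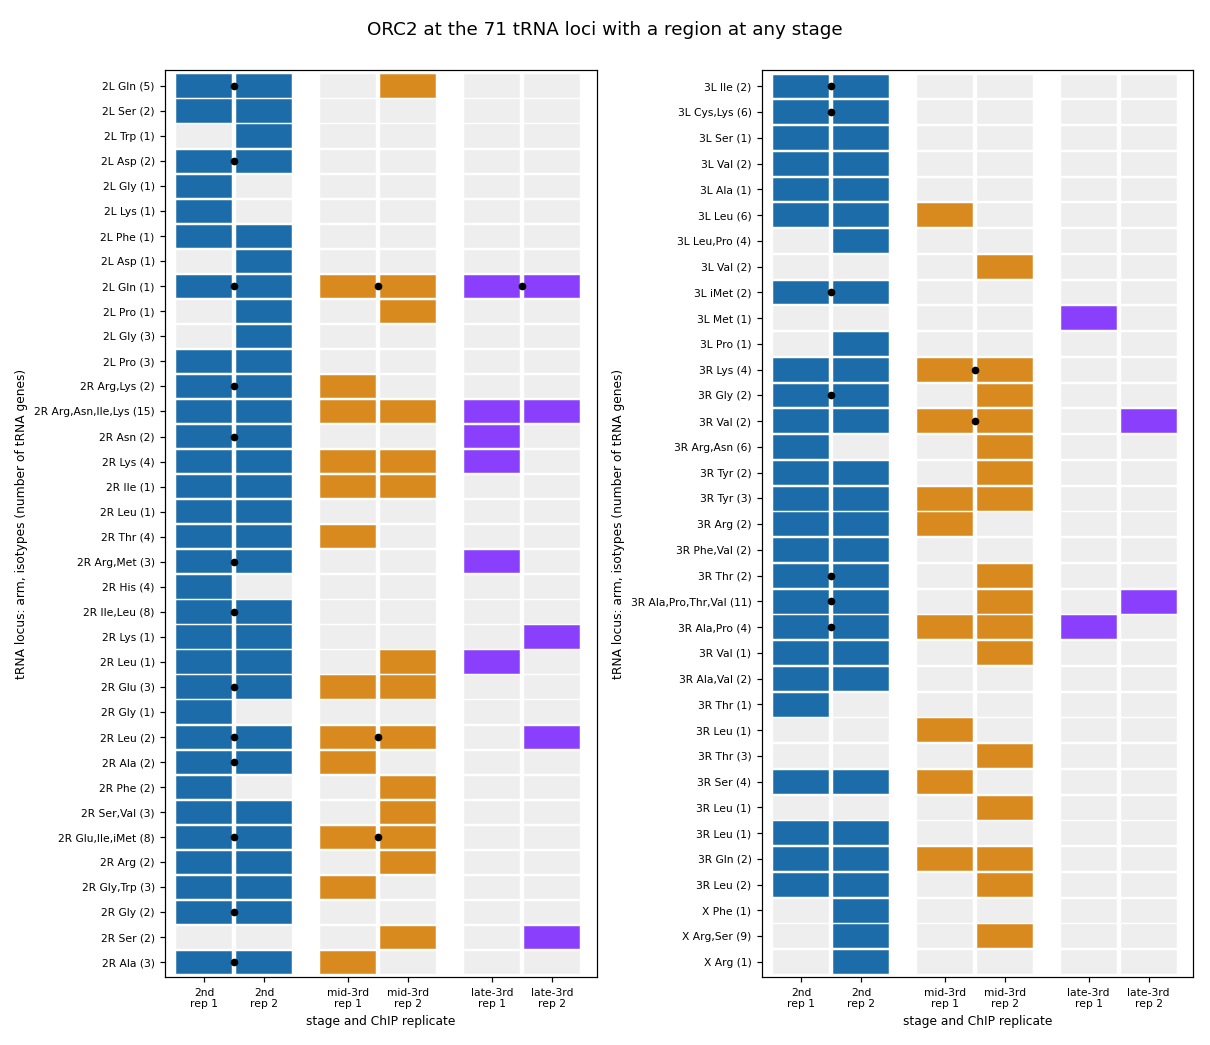
The 71 tRNA loci with an ORC2 region at any stage, in genome order down the left and then the right panel, each named by chromosome arm and isotypes with its number of tRNA genes in parentheses. Columns are the ChIP replicates of each stage, a coloured cell marks a region with a peak of that replicate within 1 kb, and a dot marks a high-confidence peak; filled cells thin out from 56 and 58 loci in the 2nd instar to 8 and 7 in the late-3rd instar.

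The tRNA calls of the 2nd instar were well shared between replicates, and those of the late-3rd instar were not. Regions with a peak of both replicates lay near 129 genes (44.5%) in 49 loci in the 2nd instar, near 31 genes (10.7%) in 11 loci in the mid-3rd instar, and near 1 gene in 1 locus in the late-3rd instar. Under the same rule, 19.4%, 6.16% and 0.505% of all nuclear genes were called. Among the 712 short genes the shares were 19.5%, 18.7% and 0.983%. Among the 605 without histone and rRNA genes they were 22%, 9.26% and 0.331%. The tRNA share of the mid-3rd instar thus lay below that of the 712 short genes. Of the 83 regions beside tRNA genes in the 2nd instar, 73.5% held a peak of both replicates, against 52.9% of the whole list. The shares were close in the mid-3rd instar, at 31.1% and 28.4%. In the late-3rd instar 1 region of 16 was shared, against 12.9% of the list.

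Among the high-confidence peaks, 56 tRNA genes (19.3%) in 20 loci were called in the 2nd instar, where 8.13% of all nuclear genes were. The counts fell to 11 genes (3.79%) in 5 loci in the mid-3rd instar, against 3.02% of all nuclear genes, and to 1 gene (0.345%) in 1 locus in the late-3rd instar, against 0.264%. Measured at the outer ends of protein-coding genes, the background was 4.45%, 1.46% and 0.0574%. Among the 712 short genes it was 10.3%, 9.27% and 0.983%. Among the 605 without histone and rRNA genes it was 10.9%, 4.46% and 0.331%. The reproducible peaks of the 2nd instar thus held an excess at tRNA genes over each of these bases. The later tRNA shares were close to those of all nuclear genes and above those of the protein-coding ends. In the mid-3rd instar the tRNA share lay below both groups of short genes, and in the late-3rd instar below the 712. The later tRNA shares rested on only 5 loci and 1 locus. The 23 high-confidence peaks near tRNA genes in the 2nd instar were wide, with a median of 1751 bp against 936 bp for the list. Their IDR values ran from 2.31e-05 to 0.0992 with a median of 0.0445, and 10 of the 23 lay below the median of the list, 0.0344. Of the 6 such peaks in the mid-3rd instar, 5 lay below the median of their list, with a median IDR of 0.0117 against 0.0420.

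The ORC2 regions near tRNA genes were also placed relative to the gene. They had been picked for lying within 1 kb of a tRNA gene, so short distances were partly set by the rule. No like set of regions around other genes is given, so these values only describe the regions. In the 2nd instar 59 of the 83 regions (71.1%) overlapped a tRNA gene itself, and the median distance from the middle of a region to the nearest tRNA gene was 246 bp. For the mid-3rd instar 30 of 45 (66.7%) overlapped a tRNA gene, with a median distance of 281 bp. Only 5 of 16 (31.2%) did so in the late-3rd instar, and the median distance was 560 bp. Of the high-confidence peaks, 20 of 23 (87.0%) overlapped a tRNA gene in the 2nd instar, 2 of 6 in the mid-3rd instar and 0 of 1 in the late-3rd instar.

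Coverage by distance showed the same difference between stages. In the 2nd instar, 31.6% of positions at the edge of a tRNA gene lay inside a region. This share was 26.9% at 500 bp, 17.2% at 1000 bp, 8.45% at 2000 bp and 6.03% at 5000 bp. At the outer ends of protein-coding genes the share was 10.9% at the edge and 4.48% at 1000 bp. The tRNA profile of the mid-3rd instar fell from 16.7% at the edge to 6.55% at 1000 bp and 2.59% at 5000 bp, against 5.46%, 1.94% and 2.06% at the protein-coding ends. The profile of the late-3rd instar was lower and uneven, with 2.24% at the edge, 2.93% at 100 bp, 1.55% at 1000 bp, 2.76% at 2000 bp and 1.03% at 5000 bp. At the edge, 1000 bp, 2000 bp and 5000 bp of the protein-coding ends it was 0.954%, 0.405%, 0.433% and 0.399%. Direct overlap in that stage was met by 8 tRNA genes (2.76%) in 4 loci (3.01%), where 3.21% of all nuclear genes, most of them far longer, were overlapped.

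**Figure D2:**
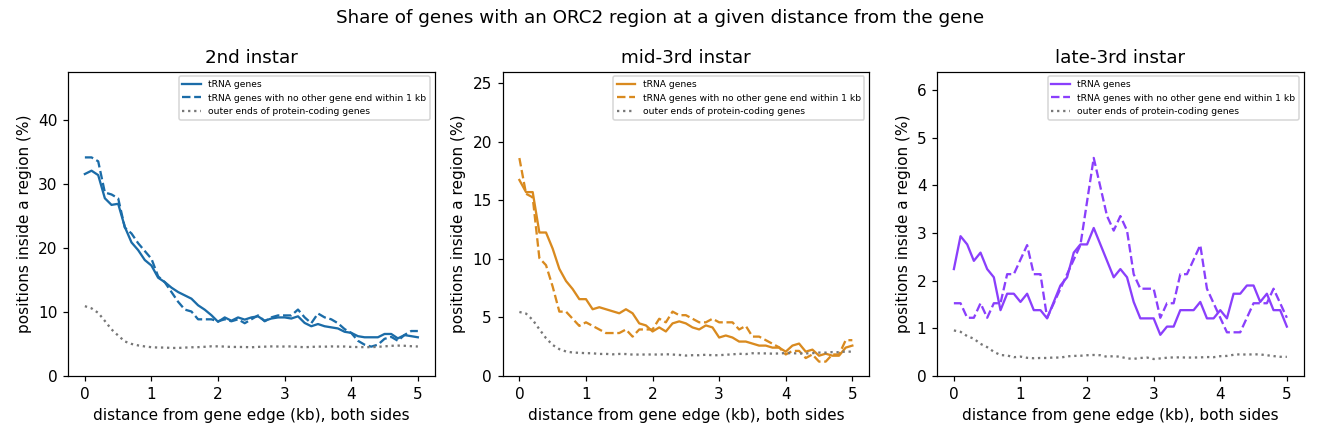
Share of positions at a given distance from the gene edge (kb, both sides pooled) that lie inside an ORC2 region (%), in 1 panel a stage with its own vertical scale. Solid lines are all 290 tRNA genes, dashed lines the 164 with no end of another gene within 1 kb, and dotted lines the outer ends of protein-coding genes; the tRNA curve starts at 31.6% in the 2nd instar and at 16.7% in the mid-3rd instar, while that of the late-3rd instar is 2.24% at the edge, 2.76% at 2000 bp and 1.03% at 5000 bp.

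Because ORC2 regions gather at the ends of genes in general, the tRNA genes were compared with sequence of the same kind. Region midpoints were counted per 100 kb on the 5 large arms, over 397.822 kb within 1 kb of a tRNA gene and over the rest. In the 2nd instar there were 18.6 midpoints per 100 kb near tRNA genes and 3.02 elsewhere. The densities were 10.1 and 1.4497 in the mid-3rd instar, and 2.77 and 0.460 in the late-3rd instar. The ratio was 6.15, 6.94 and 6.01 over the stages. For single replicates it was 6.45 and 7.67, then 8.83 and 6.06, then 4.99 and 5.61. It was above 1 in all 6 replicates, and both late-3rd values lay below the other 4. Exact permutation p-values were 1, 0.333 and 0.333 for the 3 pairs (1, 0.5 and 0.5 after adjustment), and since 0.333 is the smallest that 2 against 2 can give, they cannot tell whether the ratio differed. For regions with peaks of both replicates the ratio was 8.68 in the 2nd instar and 6.81 in the mid-3rd instar, and in the late-3rd instar no such midpoint lay near a tRNA gene.

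The excess was also found away from the ends of other genes, though such a tRNA gene can still lie inside another gene. Of the 290 tRNA genes, 126 had an end of another gene within 1 kb and 164 had none. A region was found at 98 of the 164 (59.8%) and at 68 of the 126 (54.0%) in the 2nd instar. In sequence with no other gene end within 1 kb, the 2nd-instar density was 17.3 midpoints per 100 kb near tRNA genes and 1.73 elsewhere, a ratio of 9.99. The corresponding ratios were 11.9 in the mid-3rd instar, from 8.21 and 0.689, and 3.92 in the late-3rd instar, from 1.296 and 0.331 with 3 midpoints near tRNA genes. Single replicates gave 11.3 and 11.5, 15.5 and 7.75, and 4.24 and 2.35. For regions with peaks of both replicates the ratio was 14.4 in the 2nd instar, from 28 midpoints near tRNA genes. It was 4.28 in the mid-3rd instar, from only 2 of the 19 midpoints there, and no such midpoint was found in the late-3rd instar. High-confidence peaks had 11, 0 and 1 midpoints in this sequence over the stages. The mid-3rd excess away from other gene ends thus rested mostly on regions of 1 replicate. Where another gene end lay within 1 kb, the ratio was lower in the earlier stages, at 3.25 in the 2nd instar and 3.74 in the mid-3rd instar, and 6.12 in the late-3rd instar.

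**Figure D3:**
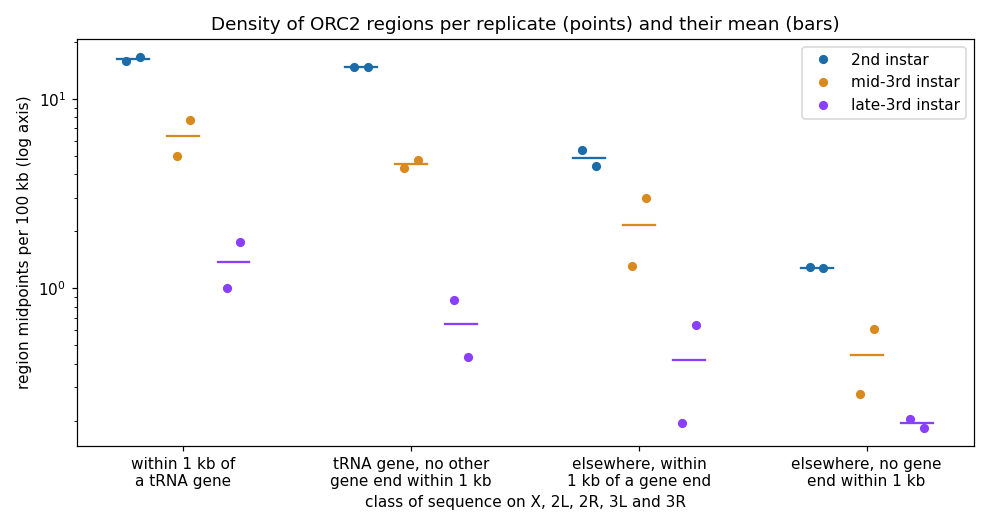
ORC2 region midpoints per 100 kb of sequence (log axis) in 4 classes of sequence on the 5 large arms. Points are the 2 replicates of a stage and bars their mean; the second class is a subset of the first, and within 1 kb of tRNA genes with no other gene end the replicates of the 2nd and mid-3rd instar all lie above those of the same stage in both classes away from tRNA genes.

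tRNA genes inside and outside another gene were called at close rates in the 2nd instar. There, 73 of 134 tRNA genes that lie within a protein-coding gene were called (54.5%), and 93 of 156 of those outside (59.6%). By the mid-3rd instar the shares were 26.1% inside and 41.0% outside, and by the late-3rd instar 7.46% and 10.3%.

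Loci with more tRNA genes were called more often. In the 2nd instar 20 of 64 loci with 1 gene were called (31.2%), 21 of 38 with 2 genes (55.3%), 8 of 14 with 3 genes (57.1%) and 16 of 17 with 4 or more (94.1%). For the mid-3rd instar the shares were 10.9%, 36.8%, 42.9% and 70.6%. For the late-3rd instar they were 6.25%, 10.5%, 7.14% and 23.5%. For single tRNA genes these shares stood at 31.2% and 10.9% beside 19.5% and 10.1% of protein-coding ends and 30.9% and 17.9% of all nuclear genes in the 2nd and mid-3rd instar. A larger locus spans more sequence and so can be met more often, but gene by gene the order was the same. Of the genes in loci of 1, 31.2% were called in the 2nd instar, of those in loci of 2 48.7%, in loci of 3 52.4% and in loci of 4 or more 80.6%. Midpoint density, which allows for the span, was 12.8 per 100 kb for loci of 1, 19.998 for loci of 2, 19.3 for loci of 3 and 24.0 for loci of 4 or more. These densities were 3.76, 12.7, 10.7 and 14.8 in the mid-3rd instar. For regions with peaks of both replicates, the 2nd-instar densities were 6.02, 19.1, 14.99 and 17.6 in the same order. For high-confidence peaks of that stage they were 0, 9.09, 6.42 and 7.396. In both of these sets single genes lay lowest and loci of 2 highest, so density did not rise further with size. The mid-3rd densities with both replicates did rise, at 0.752, 2.73, 4.28 and 4.62. With no other gene end within 1 kb, 13 of 41 single genes (31.7%) and 85 of 123 clustered genes (69.1%) were called in the 2nd instar. How far likeness in sequence between copies moves these calls was not tested.

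**Figure D4:**
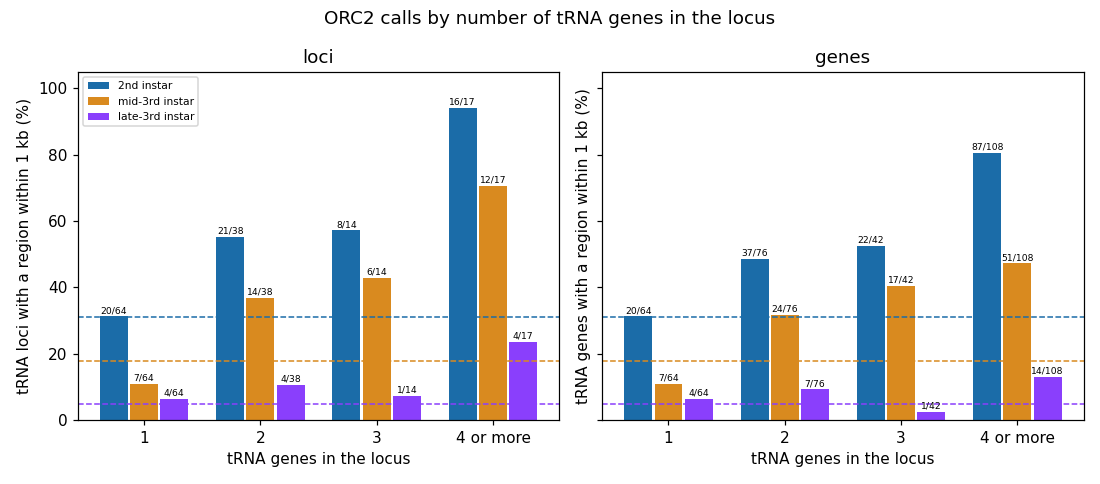
Share of tRNA loci (left) and of tRNA genes (right) with an ORC2 region within 1 kb (%), by the number of tRNA genes in the locus. Bars are the 3 stages with counts above them, and dashed lines are the share of all nuclear genes called at each stage (30.9%, 17.9% and 4.79%); in the 2nd instar the share of loci rises from 20 of 64 single-gene loci to 16 of 17 loci with 4 or more genes.

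By chromosome arm, the share of tRNA genes called was higher on both right arms of the large autosomes than on the left arms. On 2R, 71.4% of tRNA genes were called in the 2nd instar, 48.0% in the mid-3rd instar and 17.3% in the late-3rd instar, beside 34.0%, 19.7% and 5.10% of all genes of that arm. On 3R the shares were 57.0%, 49.4% and 8.86%, beside 30.6%, 16.6% and 4.73%. On 2L they were 51.2%, 14.6% and 2.44%, beside 34.9%, 21.8% and 5.59% of all genes. On 3L 24, 5 and 1 of 48 tRNA genes were called, where 32.2%, 15.8% and 3.70% of all genes were. The values for tRNA genes of the left arms thus lay below those for all genes of the same arm in the mid-3rd and late-3rd instar. On X, of which male larvae carry a single copy, 6, 2 and 0 of 24 tRNA genes were called over the stages, where 19.6%, 14.4% and 2.81% of all X genes were. As loci, 23, 16 and 8 of 37 were called on 2R over the stages, 18, 17 and 3 of 36 on 3R, 12, 3 and 1 of 25 on 2L, 9, 2 and 1 of 23 on 3L, and 3, 1 and 0 of 12 on X.

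Isotypes differed widely in how many of their genes were called, and they were not independent because copies of an isotype sit in the same clusters. Over all tRNA genes the shares by stage were 57.2%, 34.1% and 8.97%, and over all nuclear genes 30.9%, 17.9% and 4.79%. All 11 isoleucine genes, in 5 loci, had a region in the 2nd instar, and 3 kept one in the mid-3rd instar. For asparagine it was 9 of 10, for lysine 17 of 19, for alanine 12 of 17 and for leucine 15 of 22. Arginine, the isotype with the most genes, had 17 of 26. At the low end were aspartate with 3 of 14, histidine with 1 of 5, methionine with 1 of 6 and tryptophan with 2 of 8, and the single selenocysteine gene had none. Initiator methionine, which starts every protein, had 4 of 6. Among isotypes with a call, only glutamate, serine and tyrosine had as many genes called in the mid-3rd as in the 2nd instar or more, with 7 and then 8 of 19 for glutamate, 9 and 9 of 20 for serine and 5 and 5 of 10 for tyrosine. Asparagine led in the late-3rd instar with 5 genes in 2 loci.

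Within an isotype the anticodon families also differed, as the following examples, chosen after their values were seen, show. All 10 genes of tRNA:Arg-ACG were called in the 2nd instar, against 4 of 10 of tRNA:Arg-TCG. The share at that stage was 30.9% over all nuclear genes. Similarly 7 of 7 genes of tRNA:Pro-AGG were called and 1 of 5 of tRNA:Pro-CGG. For glutamate, tRNA:Glu-TTC had 5 of 6 and tRNA:Glu-CTC 2 of 13. The arginine ACG genes lay in 3 loci and those of TCG in 5, so such contrasts rest on few loci.

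**Figure D5:**
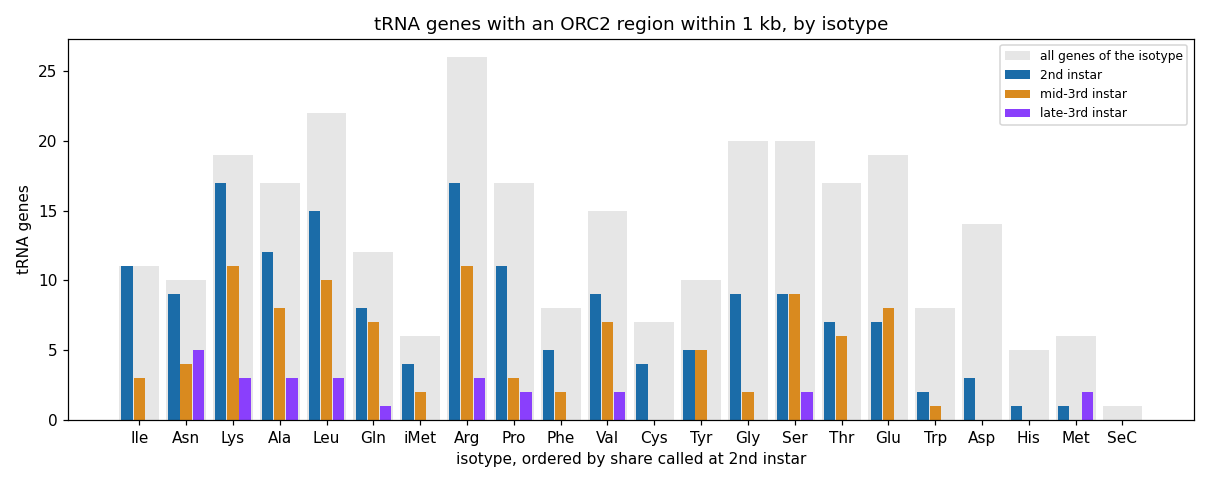
Number of tRNA genes of each isotype (wide grey bars) and number with an ORC2 region within 1 kb at each stage (coloured bars), ordered by the share called in the 2nd instar. All 11 isoleucine genes were called in the 2nd instar, while aspartate had 3 of 14, beside 30.9% of all nuclear genes.

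Over the stages, many tRNA loci lost their call and few gained one. Of 133 loci, 28 were called in the 2nd instar only, 26 in the 2nd and mid-3rd instar, 8 at all 3 stages, 3 in the 2nd and late-3rd instar, 4 in the mid-3rd instar only, 1 in the mid-3rd and late-3rd instar and 1 in the late-3rd instar only. The remaining 62 were called at no stage. At the level of genes, 18 of 290 (6.21%) were called at all 3 stages, where 3.52% of all nuclear genes were. Of the 65 loci called in the 2nd instar, 34 (52.3%) were also called in the mid-3rd instar and 11 (16.9%) in the late-3rd instar. Of the 68 loci not called in the 2nd instar, 5 and 2 were. Retention was set beside that of all genes. Of tRNA genes called in the 2nd instar 52.4% were called in the mid-3rd instar and 13.3% in the late-3rd instar, against 45.2% and 13.4% of all nuclear genes. Among genes with a high-confidence peak in the 2nd instar, the shares were 55.4% and 21.4% for 56 tRNA genes and 70.4% and 30.7% for 1448 genes in all.

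Turning to single loci, 25 of the 133 had a high-confidence peak at some stage or a region at all 3 stages. The 12 of these with the most stages and the 5 loci with the most tRNA genes are described, 14 loci in all. Positions are in Release 6.

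The locus called most firmly was a lone glutamine gene, tRNA:Gln-CTG-4-1 at chr2L:14010565-14010636, which lies outside any protein-coding gene. It was the only locus with a high-confidence peak at all 3 stages, and in the late-3rd instar the only one whose region held peaks of both replicates. The merged region was chr2L:14011409-14012019 in the 2nd instar, chr2L:14011406-14012039 in the mid-3rd instar and chr2L:14011298-14012006 in the late-3rd instar, so the same place was found 3 times. Its high-confidence peaks had an IDR of 0.000176, 0.0102 and 0.0542 in that order. Yet the region lay beside the tRNA gene and not over it. The gap was 772, 769 and 661 bp for the merged regions and 323, 760 and 391 bp for the high-confidence peaks. An end of bgm was also near, 985, 965 and 998 bp from the merged regions and 309, 852 and 930 bp from the high-confidence peaks. The locus was 1 of the cases that the 1 kb margin took in and direct overlap left out.

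The largest locus, with 15 genes for asparagine, arginine, lysine and isoleucine over 26054 bp at chr2R:6152603-6178656, lies in and beside EcR, the gene of the ecdysone receptor that times molting and metamorphosis. All 15 genes had a region in the 2nd instar, 9 in the mid-3rd instar and 7 in the late-3rd instar. In the 2nd instar 6 separate regions were listed, 5 of them in both replicates, and the longest of 2974 bp covered 3 asparagine genes. At each of the later stages 3 regions were listed, each from 1 replicate only. A region near chr2R:6162072-6162671 was found by replicate 2 in the late-3rd instar and, at chr2R:6162250-6162849, by replicate 1 in the mid-3rd instar. No high-confidence peak was called at any stage.

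Several of the named loci sit beside other genes of RNA polymerase III or other small RNA genes, and there many of the regions overlapped the neighbour. At chr2R:17143965-17145381, tRNA:Leu-AAG-1-2 and tRNA:Leu-AAG-1-3 each lie next to a copy of the U3 snoRNA gene, whose RNA guides the processing of ribosomal RNA. The high-confidence peak over snoRNA:U3:54Aa had an IDR of 2.31e-05 in the 2nd instar, the lowest near any tRNA gene, and 0.0109 in the mid-3rd instar. At snoRNA:U3:54Ab the values were 0.000436 and 0.0211. The merged regions in the 2nd instar were 603 bp wide and held peaks of both replicates, and 9 bp parted the first from its tRNA gene. Both regions were found again in the late-3rd instar, by replicate 2 alone.

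Likewise, the 4 lysine genes tRNA:Lys-TTT-2-1 to tRNA:Lys-TTT-2-4 at chr3R:6819894-6823035 flank the genes for 7SL RNA, the scaffold of the signal recognition particle. All 4 had a region in the 2nd and mid-3rd instar, in both replicates, and none in the late-3rd instar. The regions overlapped 7SLRNA:CR42652 and 7SLRNA:CR32864. At 52 bp from the nearest tRNA gene, the first started at the same base, chr3R:6820019, in both stages. A high-confidence peak was listed only in the mid-3rd instar, with an IDR of 0.0705. At chr3R:7472060-7475975 a pair of valine genes lies around snRNA:7SKa, the gene for 7SK RNA, which holds the elongation kinase P-TEFb inactive. The tRNA gene at its end was overlapped by a region of both replicates in the 2nd instar. The merged region over snRNA:7SKa, 811 bp away, carried the call in the mid-3rd instar. The high-confidence peak of that stage lay 920 bp away and had an IDR of 0.0124. In the late-3rd instar a region of replicate 2, 779 bp away, carried the call.

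At chr2R:19715565-19728958 lie 8 genes, 5 for glutamate, 2 for initiator methionine and 1 for isoleucine. Of these 7 were called in the 2nd instar, 8 in the mid-3rd instar and none in the late-3rd instar. A region of 1949 bp in the 2nd instar and of 1832 bp in the mid-3rd instar, both with peaks of both replicates, overlapped 4 of the tRNA genes. The high-confidence peaks had an IDR of 0.0396 in the 2nd instar and 0.00939 in the mid-3rd instar, the lowest of that stage near a tRNA gene. The eighth gene was gained through a region at chr2R:19729704-19730436 that overlapped 5S rRNA genes at the start of their cluster, 745 bp from the tRNA gene.

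Alanine and proline genes on 3R formed neighbouring named loci. At chr3R:17645307-17646755, 3 alanine genes and 1 proline gene were called at all 3 stages. The region was chr3R:17644490-17647365 in the 2nd instar and chr3R:17644432-17647311 in the mid-3rd instar, covered all 4 genes and held peaks of both replicates each time. A high-confidence peak of 4696 bp with an IDR of 0.0149, the widest near any tRNA gene, was listed in the 2nd instar only. A region of 600 bp from replicate 1 in the late-3rd instar lay 2 bp from the nearest gene. The neighbour at chr3R:17617761-17631750 holds 11 genes for alanine, proline, threonine and valine, of which 7, 2 and 2 were called over the stages. Its high-confidence peaks in the 2nd instar had IDR values of 0.0329 and 0.0563, and the second overlapped AttD, which encodes the antimicrobial peptide Attacin-D. Its single regions in the mid-3rd and late-3rd instar came from replicate 2.

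Lysine genes were found again at chr2R:6946808-6949205, where 4 copies lie within CheB42c and mim. Of these 4, 3 and 1 were called over the stages, with a region of both replicates of 1443 bp in the mid-3rd instar and none of high confidence. The leucine gene tRNA:Leu-AAG-1-1 at chr2R:14984327-14984408, inside pcs, was a single gene called at all 3 stages. A region of both replicates overlapped it in the 2nd instar and one of replicate 2 in the mid-3rd instar, while the late-3rd region came from replicate 1 and lay 941 bp off.

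At chr2R:13430282-13437939, 6 isoleucine and 2 leucine genes in ATP8A, which encodes a phospholipid-transporting ATPase, were called at a single stage. All 8 were called in the 2nd instar and none later. The region of 1983 bp held 2 peaks of each replicate and overlapped 6 of the genes. The high-confidence peaks had IDR values of 0.0628 and 0.0992, both above the median of the list, 0.0344. The 5 glutamine genes at chr2L:2009155-2013250, near Nplp4 and in CG4238, were all called in the 2nd instar, with a high-confidence peak of 2780 bp over 4 of them and an IDR of 0.0271. Later, 4 were called in the mid-3rd instar, by replicate 2 alone, and none in the late-3rd instar. At chr2R:11652367-11660635, with 1 arginine and 2 methionine genes, the second methionine gene lay under a high-confidence peak of 3315 bp (IDR 0.0469) in the 2nd instar that also overlapped Roc2, which encodes a subunit of cullin ubiquitin ligases. No merged region lay within 1 kb of that gene at that stage. The merged region listed there, chr2R:11651052-11652041, lay near the other 2 genes. No region was listed in the mid-3rd instar, and 1 of replicate 1 was in the late-3rd instar. The large locus on X, 9 arginine and serine genes at chrX:14014814-14025647, had 4 genes called in the 2nd instar and 2 in the mid-3rd instar, by replicate 2 alone, and none in the late-3rd instar. Among the loci of 4 or more genes, only the 6 glutamate genes that begin at position 1397695 of 3L, singled out after their values were seen, had no region at any stage.

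A fixed list of other small RNA genes, taken as transcribed by RNA polymerase III, also had regions. Which polymerase transcribes each of them was not tested, that of RNase P RNA included. Of the 8 listed genes without the 5S rRNA genes, 7 had a region in the 2nd instar, 6 in the mid-3rd instar and 4 in the late-3rd instar. Of all nuclear genes, 30.9%, 17.9% and 4.79% were called. The U6 genes lie side by side, as do the 7SL genes, so the 8 genes stand for fewer places. The U6 genes snRNA:U6:96Aa, snRNA:U6:96Ab and snRNA:U6:96Ac, which encode the spliceosomal RNA and use promoters upstream of the gene rather than inside it, were called at all 3 stages, in both replicates in the 2nd and mid-3rd instar and in replicate 2 in the late-3rd instar. So was snRNA:7SKa, with a high-confidence peak in the 2nd and mid-3rd instar. The gene for the RNA of RNase P, which trims the 5′ end of new tRNAs, had a high-confidence peak in the 2nd instar and no region later. The gene of the related RNase MRP RNA had none at any stage. Both 7SL genes and snRNA:7SKa are the neighbours of the lysine and valine loci above, so these calls are not separate from theirs.

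The 96 copies of the 5S rRNA gene at chr2R:19729562-19766278, which begin beside the glutamate locus, were called at other stages than most tRNA genes. None had a region in the 2nd instar, all 96 had one in the mid-3rd instar and 19 in the late-3rd instar. In the mid-3rd instar 9 regions covered the cluster, 5 of them with peaks of both replicates, and 33 copies had a high-confidence peak. By the late-3rd instar 3 regions were listed, none of them in both replicates. The copies are repeats, so the 96 genes stand for 1 place.

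The protein-coding genes for tRNA synthesis and charging were looked at as further lists. Of 17 genes for subunits of RNA polymerase III, its factors and its regulators, 4, 4 and 1 had a region over the stages (23.5%, 23.5% and 5.88%), near the 30.9%, 17.9% and 4.79% of all nuclear genes. Maf1, the repressor that lowers tRNA synthesis when nutrients are short, was called at all 3 stages in both replicates and had a high-confidence peak at each. Maf1 spans chr2R:1512810-1527095 and is longer than most genes of this list, so it offers a larger window. Of 20 genes for cytoplasmic aminoacyl-tRNA synthetases, which load tRNAs with their amino acids, 9 were called in the 2nd instar (45.0%), 1 in the mid-3rd instar and 0 in the late-3rd instar, beside the same shares of all nuclear genes. beta-PheRS, the beta subunit of the phenylalanine enzyme, had a high-confidence peak in the 2nd instar and was the only one that did.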

How the data were processed

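ORC2 ChIP-seq peak lists of 12 libraries (2 ChIP and 2 input replicates at each of 3 stages) were analysed. According to the methods, the authors aligned reads with Bowtie2 at default settings, called peaks of each replicate against input with MACS2 at a q-value below 0.05, merged the replicates of a stage, and listed peaks below an IDR of 0.1. The 6 deposited lists give positions. The high-confidence lists also give the IDR, which is read like a q-value. Tool versions and read depths are not given in the sources used here. Peaks were traced to a replicate by their names in the merged lists. A merged region has no separate position for each replicate. The high-confidence peaks are a separate list, and such a peak need not overlap a merged region.

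The submitters' processing notes name the build dm3, but listed positions reach 23538660 on X, beside the last Release 6 gene end at 23538283, and 32078831 on 3R, beside 32068441. Moreover, 102 tRNA genes were overlapped directly in the 2nd instar, 32 after a shift of 2000 bp and 16 after 100000 bp. Release 6 was therefore used, with RefSeq gene positions. That table gives no strand, so distances are unsigned.

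Overlaps were counted in Python 3.11.15 with numpy 2.4.6, pandas 2.3.3 and scipy 1.17.1, 1-based, with a margin of 1000 bp, and loci were formed at 10000 bp. The code was tested on simulated data. Figures used matplotlib 3.10.9. Replicate counts and density ratios were compared by exact permutation. The methods call the replicates biological. Described loci were those with a high-confidence peak at any stage or a region at all 3 stages, limited to 12 by the number of stages, then of high-confidence stages, then of genes, together with the 5 largest. From the lists of other genes, those with a high-confidence peak or a region at all 3 stages were described. The members and lists were chosen with earlier results of these data known. Alternatives were the margin, the locus distance, the midpoint rule, both replicates, single replicates and tRNA genes with no other gene end within 1 kb.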

Additional observations from a re-analysis of the deposited data

How the results depend on the processing

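Of 99 alternatives tried, 70 left the count within 1.5 times or the direction as it was, 29 moved it and 0 reversed it. A move was judged on the count, also where an alternative left fewer genes or loci to count. The 2nd-instar count of 65 loci moved only when tRNA genes with another gene end within 1 kb were left out (without neighbours, below). It became 39 of 84 loci, a share of 46.4% after 48.9%. The gene count of 166 became 98 of 164 then, 59.8% after 57.2%, and 102 under direct overlap. Without neighbours the mid-3rd shares were 26.2% of loci and 31.7% of genes, and the late-3rd shares 8.33% and 7.93%. These lay close to the reported shares. For the mid-3rd instar, 39 loci became 11 with both replicates required, 22 without such neighbours, and 21 to 30 with 1 replicate left out, and 99 genes became 54 under direct overlap, 31 with both replicates, 52 without neighbours, and 56 to 74 with 1 replicate left out. For the late-3rd instar, 13 loci became 4 under direct overlap, 7 at 500 bp, 21 at 5 kb, 8 by region midpoint, 1 with both replicates, 7 without neighbours and 7 to 8 with 1 replicate left out, and 26 genes became 8 under direct overlap, 63 at 5 kb, 1 with both replicates, 13 without neighbours and 12 to 15 with 1 replicate left out. High-confidence loci of the mid-3rd instar, 5 as reported, were 2 under direct overlap, 3 at 500 bp, 3 by midpoint and 8 when loci were formed at 1 kb, and the late-3rd locus was lost under direct overlap, leaving 0. The share of tRNA genes called, divided by that of all nuclear genes, stayed between 1.448 and 2.29 in the 2nd instar and between 1.502 and 2.33 in the mid-3rd instar, but ran from 0.683 to 2.42 in the late-3rd instar. No paired analysis was possible because replicate numbers mark no shared animals, and the stages were compared on 1 count for each replicate. The lists give no reads, so absence of a region cannot be told apart from low depth.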

Other observations

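The tRNA genes left out of the members were counted in the same way. Of 5 nuclear tRNA pseudogenes, 2 had a region within 1 kb in the 2nd instar, 1 in the mid-3rd instar and 0 in the late-3rd instar, and none had a high-confidence peak. Of 22 mitochondrial tRNA genes, 3 had a region in the 2nd instar, 3 in the mid-3rd instar and 0 in the late-3rd instar. Both calls came from 1 region of replicate 2 on the mitochondrial genome, at 12626 to 13225 in the 2nd instar and at 12601 to 13200 in the mid-3rd instar.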
